A study of Mus musculus with 6 samples.

Results

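The genes described here are 10 components of the mammalian circadian clock, *Arntl*, *Clock*, *Per1*, *Per2*, *Cry1*, *Cry2*, *Nr1d1*, *Nr1d2*, *Dbp* and *Bhlhe40*. They were chosen by name, and each of the 10 symbols matched 1 of the 54532 genes in the deposited expression table, whose unit is TPM, a transcript level normalised for gene length and library total. Levels were measured by RNA-seq of poly-A RNA from primary bone-marrow-derived macrophages (BMDMs), which were differentiated with L929-conditioned medium from marrow of wildtype C57BL/6 mice. The 6 libraries form 3 groups of 2, which are untreated cells, cells that received LPS at 100 ng/ml during 2 h (LPS), and cells that received metformin at 5 mM during 6 h and the same LPS dose during the following 2 h (Met + LPS). LPS is the bacterial lipopolysaccharide that macrophages sense through TLR4, and metformin is a diabetes drug that inhibits mitochondrial complex I. The design asks how metformin alters the early LPS response. There was no group with metformin alone, so the drug's action on clock genes without LPS was not measured. Each group was harvested at a single time and the labels give no time of day, so that a change in the amount of a clock transcript and a shift in its phase cannot be told apart.

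The circadian clock is a feedback loop of transcription that runs in most cells, macrophages included, with a period of about a day. The activators CLOCK and BMAL1 (the product of *Arntl*) bind E-box motifs as a pair and turn on *Per* and *Cry* genes, whose proteins come back to the nucleus and inhibit the activators. A second loop is formed by the nuclear receptors REV-ERBα (*Nr1d1*) and REV-ERBβ (*Nr1d2*), which are themselves E-box targets and repress *Arntl* in competition with the ROR receptors. *Dbp* encodes an activator of D-box genes and is a classical output of the loop, and *Bhlhe40* encodes DEC1, a repressor that competes for E-boxes. In macrophages the clock and REV-ERB proteins are known to set the strength of inflammatory gene expression.

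Promoter windows of RefSeq, from 250 bases before to 50 bases after an annotated start, were found for 8 of the 10 genes, in 12 windows on GRCm38.p6. Windows for *Per2* and *Bhlhe40* were not analysed here. The windows were searched on both strands for the E-box CACGTG, the related E'-box CACGTT, the REV-ERB/ROR core AGGTCA, the cyclic AMP response element (CRE) TGACGTCA and the D-box core TTATGTAA. No searched motif overlapped another in the windows with a match. An E-box stood in 2 of the 12 windows, 1 each of *Per1* and *Cry1*, against 7.15% of all 32851 promoter windows. An E'-box stood in 3 of the 12 (*Cry1*, *Cry2* and *Nr1d1*), against 4.68% of all windows. The REV-ERB/ROR core stood in 4 of the 12, against 16.3%, which were the window of *Nr1d2* and 1 of the several windows each of *Arntl*, *Clock* and *Per1*. Neither the CRE (1.79% of all windows) nor the D-box core (0.938%) was found in the 12 windows, and the *Dbp* window held none of the 5 motifs. Such a match describes letters and does not show that a factor is bound.

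**Figure D1:**
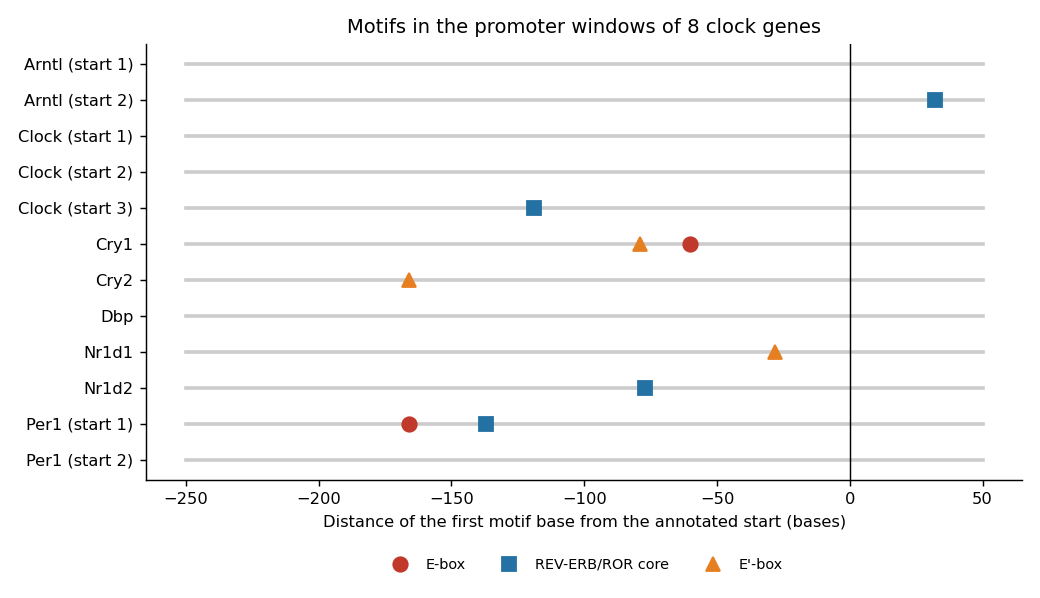
Positions of the 3 motifs that were found in the promoter windows of 8 clock genes. The x axis gives the distance in bases from the annotated start to the first base of a match, each grey line is 1 of 12 windows, and red circles are E-boxes, orange triangles E'-boxes and blue squares the REV-ERB/ROR core. Only Per1 and Cry1 carry an E-box here, at -166 and -60.

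5 of the windows with a match are printed here, chosen in part because their genes differed in response. The windows of *Cry2* and *Clock* that hold a match are not printed. Any link between a match and the response of a gene was not tested. The window of *Per1* is chr11:69098699-69098998 on the plus strand, that of *Cry1* is chr10:85185005-85185304 on the minus strand, that of *Nr1d1* is chr11:98775328-98775627 on the minus strand, that of *Nr1d2* is chr14:18239057-18239356 on the minus strand, and that of *Arntl* (the second of 2 starts) is chr7:113207261-113207560 on the plus strand. Capitals mark the matches, read 5′ to 3′ along the gene's strand, so that AACGTG and TGACCT are the E'-box and the REV-ERB/ROR core on the other strand.
Per1 promoter: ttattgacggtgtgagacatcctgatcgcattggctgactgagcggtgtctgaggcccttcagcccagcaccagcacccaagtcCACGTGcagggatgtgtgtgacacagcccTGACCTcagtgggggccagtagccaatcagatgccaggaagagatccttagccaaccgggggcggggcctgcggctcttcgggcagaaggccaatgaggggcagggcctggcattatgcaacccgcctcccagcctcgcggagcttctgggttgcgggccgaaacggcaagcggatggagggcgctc
Cry1 promoter: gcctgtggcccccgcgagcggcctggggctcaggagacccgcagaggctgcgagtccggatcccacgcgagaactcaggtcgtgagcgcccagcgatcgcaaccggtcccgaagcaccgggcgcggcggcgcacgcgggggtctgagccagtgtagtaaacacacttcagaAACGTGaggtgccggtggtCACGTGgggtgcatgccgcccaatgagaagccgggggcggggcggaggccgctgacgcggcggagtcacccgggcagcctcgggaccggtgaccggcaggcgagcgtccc
Nr1d1 promoter: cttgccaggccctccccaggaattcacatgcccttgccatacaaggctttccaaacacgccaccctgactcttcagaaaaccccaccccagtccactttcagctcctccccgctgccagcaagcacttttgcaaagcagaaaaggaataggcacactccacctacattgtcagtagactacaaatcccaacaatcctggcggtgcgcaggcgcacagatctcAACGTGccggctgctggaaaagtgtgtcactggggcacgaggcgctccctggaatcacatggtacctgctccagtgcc
Nr1d2 promoter: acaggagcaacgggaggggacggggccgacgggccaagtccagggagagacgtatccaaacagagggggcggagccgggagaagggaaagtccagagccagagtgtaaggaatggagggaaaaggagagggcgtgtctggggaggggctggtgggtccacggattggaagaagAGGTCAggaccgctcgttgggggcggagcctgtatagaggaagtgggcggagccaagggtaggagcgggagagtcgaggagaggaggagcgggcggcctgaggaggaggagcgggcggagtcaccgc
Arntl promoter: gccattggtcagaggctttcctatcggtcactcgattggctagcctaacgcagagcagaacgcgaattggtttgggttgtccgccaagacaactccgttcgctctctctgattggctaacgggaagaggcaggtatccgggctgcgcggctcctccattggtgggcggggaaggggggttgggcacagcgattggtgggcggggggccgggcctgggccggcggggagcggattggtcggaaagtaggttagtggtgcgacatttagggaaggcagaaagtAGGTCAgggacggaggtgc

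To recover reads, TPM times the exon length of the gene was divided by a step per library, which was estimated from the same values. In each library, between 96.1% and 96.3% of the values above 0 then lay within 0.02 of a whole read. With all values rounded, this gave 25457016 to 30762754 reads on genes per library. The 12755 genes that reached 1 TPM in 2 or more libraries entered a limma fit of log2(TPM + 1), and a gene was called at an adjusted p-value under 0.01. An exact two-sided permutation test of 2 against 2 libraries cannot go below p = 0.333, and the limma p-values draw on a spread moderated over genes. The methods describe seeding in duplicate and do not say that the 2 libraries of a group came from separate mice, so p-values measure only the spread between these cultures, which may be technical. All 7 macrophage markers examined were above 1 TPM, and they summed to 43710 to 45600 TPM in untreated, 34526 to 35264 TPM in LPS and 28763 to 28884 TPM in Met + LPS libraries. *Lyz2* was the largest part of these sums, with means of 34912, 26835 and 21292 TPM in the same order. From untreated to LPS, the mean of *Adgre1* went from 1543 to 1717 TPM and that of *Fcgr1* was 165 TPM in both, while the other markers were lower in LPS. The 5 neutrophil markers summed to 27.2 to 30.9 TPM in untreated, 24.4 to 25.8 TPM in LPS and 40.2 to 42.0 TPM in Met + LPS libraries, with 4 of the 5 above 1 TPM in 2 or more libraries and the defining marker *Ly6g* at 0 in all but 1 library. The 3 dendritic cell markers summed to 0.263 to 0.303 TPM in untreated, 2.0 to 2.13 TPM in LPS and 1.98 to 2.06 TPM in Met + LPS libraries. None of the T cell, B cell, fibroblast and mast cell markers passed the filter. The part of other cells in the results was not tested, and in bulk RNA fewer cells of a type and less RNA per cell cannot be told apart.

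In untreated BMDMs the 10 genes spanned from about 2 to about 50 TPM, a scale on which levels of different genes can be compared because it is per length. *Bhlhe40* was highest at 50.1 ± 0.599 TPM (SD, n = 2), followed by *Nr1d2* at 40.4 ± 0.180 TPM. *Clock* (17.8 ± 0.388 TPM), *Cry1* (17.0 ± 0.17 TPM) and *Per1* (16.2 ± 0.0307 TPM) formed a middle group. *Dbp* (10.7 ± 0.00174 TPM), *Cry2* (6.16 ± 0.502 TPM), *Arntl* (5.59 ± 0.197 TPM), *Nr1d1* (2.59 ± 0.202 TPM) and *Per2* (1.91 ± 0.326 TPM) followed. The libraries of neighbours in this order did not overlap. After LPS, *Bhlhe40*, *Nr1d2*, *Clock* and *Cry1* remained the top 4 in the same order, with *Nr1d2* and *Clock* overlapping, while *Per1* went from place 5 to place 7, below *Cry2* and *Arntl*.

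**Figure D2:**
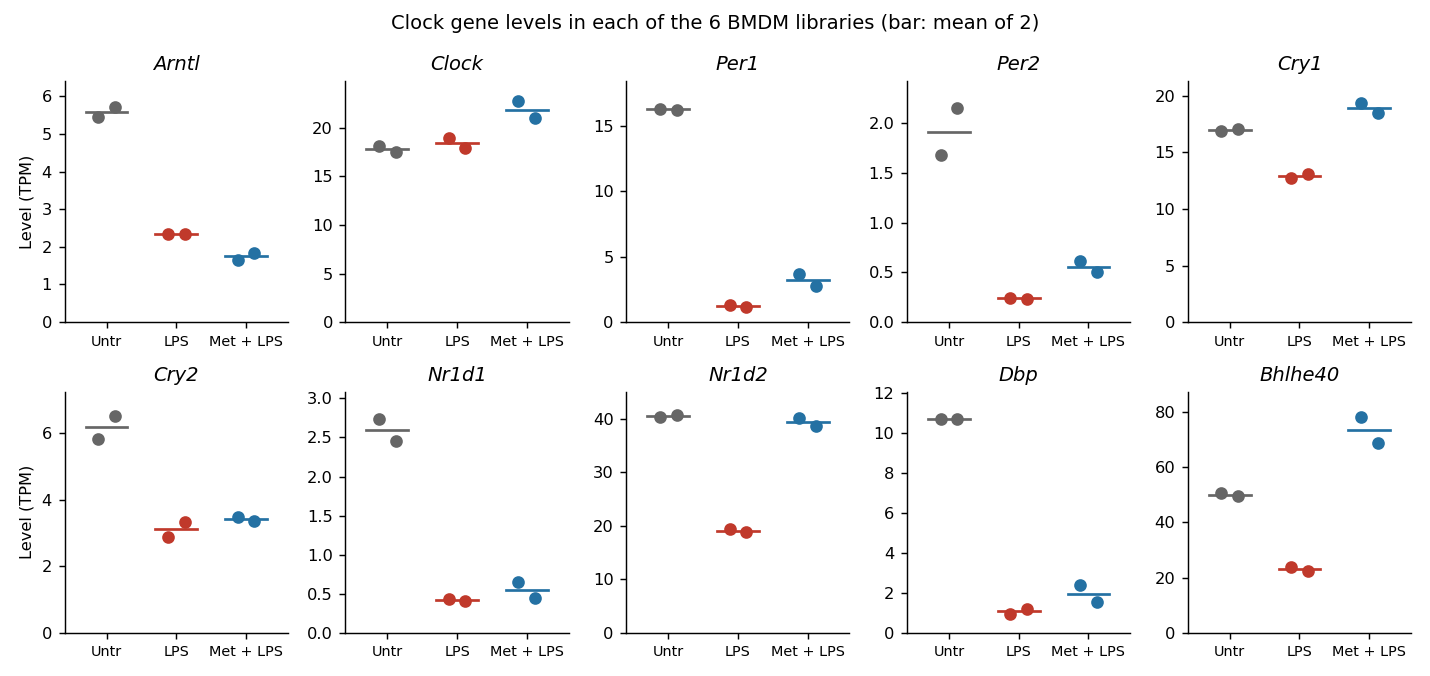
Level of each of the 10 clock genes in TPM (y axis, from 0, with its own scale in each panel) in the 2 untreated (grey), 2 LPS (red) and 2 Met + LPS (blue) libraries. Points are libraries and bars are means of 2. Per1, Per2, Nr1d1 and Dbp sit low in all 4 stimulated libraries, whereas Nr1d2 and Bhlhe40 are low only in the 2 LPS libraries.

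LPS stimulation lowered 9 of the 10 clock transcripts at 2 h, with *Per1* and *Dbp* falling most and *Clock* being the exception. This count has to be read against the whole table, since 60.1% of all tested genes were called lower in LPS than in untreated BMDMs, 16.2% were called higher, and the median over all tested genes was a log2 fold change of -0.48. The libraries of 9 clock genes lay lower in LPS without overlap, as did those of 71.5% of all tested genes (20.1% lay higher). The median over the 10 clock genes was -1.07. After the libraries were rescaled by the median ratio over genes, 7 clock genes were called lower and 1 higher, with a median of -0.57 against -0.01 for all tested genes, of which 27.6% were then called lower and 30.6% higher. *Per2* and *Nr1d1* passed the filter on low values only through the untreated libraries, so they had to differ in order to be tested, and the count of 9 is a description only. At the study's stricter cut-off of 2 in either direction, applied here to log2(TPM + 1), *Per1* and *Dbp* were called (2 of 10). Of all tested genes 6.08% passed it, 2.37% as lower and 3.72% as higher. The study applied this cut-off to fold changes modelled on read counts, whereas the added 1 TPM shrinks those of low genes. *Per2* and *Nr1d1*, 7.97-fold and 6.26-fold lower in TPM, fell short of it at -1.23 and -1.34. With voom on recovered reads and TMM scaling they were at -2.45 and -2.11.

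Among the activators, *Arntl* (ENSMUSG00000055116, chromosome 7, 113207465 to 113314126), whose product BMAL1 is the partner that the clock cannot run without, was at 5.45 and 5.73 TPM in untreated and at 2.34 and 2.35 TPM in LPS libraries. It was 2.39-fold lower after LPS, a log2 fold change of -0.98 on the log2(TPM + 1) scale (SE 0.09, adjusted p = 7.5e-05 by limma after Benjamini-Hochberg correction). *Clock* (ENSMUSG00000029238, chromosome 5, 76209868 to 76304792), the other subunit, was at 18.1 and 17.5 TPM in untreated and 18.9 and 17.9 TPM in LPS libraries. The 2 groups overlapped, and the log2 fold change of *Clock* was 0.05 (SE 0.06, adjusted p = 0.485 by limma). Relative to the median tested gene *Clock* was 0.53 higher on the log2 scale, and after rescaling it was called higher (0.54, adjusted p = 2.0e-04 by limma). The ratio of *Clock* to *Arntl* in TPM was 3.31 and 3.06 in the untreated libraries and 8.09 and 7.61 in the LPS libraries.

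Of the period genes, which encode the inhibitory partners of the cryptochromes, *Per1* (ENSMUSG00000020893, chromosome 11, 69095217 to 69109960) was at 16.3 and 16.2 TPM in untreated and at 1.28 and 1.12 TPM in LPS libraries, the latter resting on 55 and 46 reads. This 13.5-fold decrease was the largest among the 10 genes, with a log2 fold change of -2.97 (SE 0.12, adjusted p = 1.4e-06 by limma), and 0.463% of the tested genes had a lower value. *Per2* (ENSMUSG00000055866, chromosome 1, 91415982 to 91459324) was at 1.68 and 2.15 TPM in untreated and at 0.247 and 0.234 TPM in LPS libraries. The LPS values of *Per2* stand for 11 and 10 reads. The 7.97-fold difference appears as a log2 fold change of only -1.23 on the log2(TPM + 1) scale (SE 0.15). With voom on recovered reads and TMM scaling, which adds no TPM, it was -2.45. No p-value is given for *Per2* here, because it passed the filter only through the untreated libraries, which fixed its direction.

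The cryptochromes, which bind and inhibit CLOCK and BMAL1 directly, changed less. *Cry2* (ENSMUSG00000068742, chromosome 2, 92403646 to 92434043) went from 5.81 and 6.52 TPM to 2.89 and 3.34 TPM, a log2 fold change of -0.80 (SE 0.10, adjusted p = 2.5e-04 by limma). After rescaling, *Cry2* was no longer called (log2 fold change -0.37, adjusted p = 0.014 by limma). *Cry1* (ENSMUSG00000020038, chromosome 10, 85131700 to 85185064) went from 16.9 and 17.1 TPM to 12.7 and 13.1 TPM, a log2 fold change of -0.37 (SE 0.05, adjusted p = 5.0e-04 by limma). That fall was smaller than the median shift of -0.48, and after rescaling the estimate for *Cry1* turned to 0.12 and was not called (adjusted p = 0.082 by limma).

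Both REV-ERB genes were at lower levels after LPS, from very different starting levels. *Nr1d1* (ENSMUSG00000020889, chromosome 11, 98767932 to 98775333) went from 2.74 and 2.45 TPM to 0.427 and 0.401 TPM, or from 64 and 54 reads to 10 and 9 reads. The log2 fold change was -1.34 (SE 0.14), and -2.11 with voom and TMM scaling. No p-value is given for *Nr1d1* here, because the filter, passed only through the untreated libraries, fixed its direction. *Nr1d2* (ENSMUSG00000021775, chromosome 14, 18204054 to 18239127) went from 40.3 and 40.6 TPM to 19.3 and 18.9 TPM, a 2.12-fold decrease with a log2 fold change of -1.04 (SE 0.04, adjusted p = 1.7e-06 by limma). *Nr1d2* therefore stood 14.7 and 16.6 times above *Nr1d1* in the untreated libraries and 45.2 and 47.2 times above it in the LPS libraries.

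The output gene *Dbp* (ENSMUSG00000059824, chromosome 7, 45705088 to 45710203) was at 10.7 TPM in both untreated libraries and at 0.966 and 1.19 TPM in the LPS libraries, on 22 and 26 reads. The decrease was 9.91-fold, a log2 fold change of -2.49 (SE 0.15, adjusted p = 8.6e-06 by limma), and 0.949% of the tested genes lay lower. *Bhlhe40* (ENSMUSG00000030103, chromosome 6, 108660629 to 108666925) fell 2.17-fold, from 50.5 and 49.6 TPM to 23.7 and 22.3 TPM, a log2 fold change of -1.09 (SE 0.07, adjusted p = 9.8e-06 by limma).

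Some of these genes share exon bases with a gene on the opposite strand, and how the authors' counting treated strand is not given in the sources used here. *Dbp* shares 18.0% of its exon length (539 bases) with *Sphk2*, which was at 86.6 and 90.0 TPM in untreated, 26.3 and 28.1 TPM in LPS and 35.8 and 35.7 TPM in Met + LPS libraries. *Nr1d1* shares 8.55% (263 bases) with *Thra*, which was at 6.98 and 8.44, 4.01 and 4.63, and 3.13 and 3.45 TPM in the same order. Both partners were called lower after LPS (log2 fold changes of -1.67 and -0.71), like the clock genes they overlap, and their part in the values of *Dbp* and *Nr1d1* was not tested. *Sphk2* and *Thra* were singled out after their values were seen. The shares were 4.67% for *Cry2*, 2.51% for *Bhlhe40* and 0.439% for *Arntl*, each with a transcript not annotated as protein coding, and 0% for the other 5 genes.

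**Figure D3:**
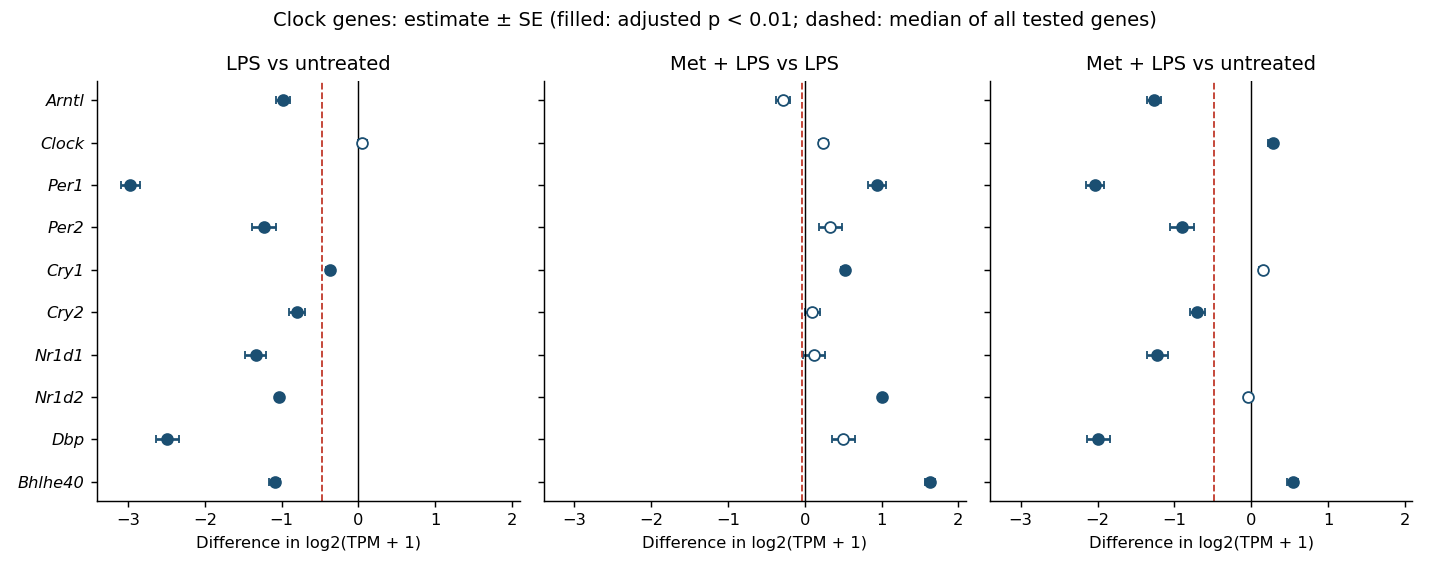
Difference in log2(TPM + 1) between groups (x axis) for each of the 10 clock genes (y axis), with bars of 1 SE from limma, filled where the adjusted p-value was under 0.01. Per2 and Nr1d1 passed the filter only through the untreated libraries, which fixed their direction in the left and right panels. The solid line is 0 and the dashed line the median of all tested genes (-0.48, -0.03 and -0.48), and Bhlhe40 moves from -1.09 in the left panel to 0.54 in the right panel.

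Metformin pretreatment raised 4 clock transcripts above their level in LPS alone and lowered none at the same threshold. *Bhlhe40*, *Nr1d2*, *Per1* and *Cry1* were called higher in Met + LPS (4 of 10), against 14.5% of all tested genes called higher and 18% called lower. The median log2 fold change was 0.41 over the 10 genes and -0.03 over all tested genes, and rescaling left the same 4 genes called. At the study's cut-off of 0.7, applied here to log2(TPM + 1), *Bhlhe40*, *Nr1d2* and *Per1* were called (3 of 10). Of all tested genes 8.28% passed it, 4.19% as higher and 4.09% as lower. The libraries of 9 clock genes lay higher than LPS without overlap and those of *Arntl* lay lower, against 33.8% and 40% of all tested genes. This comparison and the preceding one share the LPS libraries, with opposite signs.

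*Bhlhe40* had the largest difference. Its libraries were at 78.1 and 68.7 TPM in Met + LPS and at 23.7 and 22.3 TPM in LPS, a 3.18-fold increase with a log2 fold change of 1.63 (SE 0.07, adjusted p = 1.6e-05 by limma). Of all tested genes, 99.4% had a lower value. *Nr1d2* was at 40.2 and 38.6 TPM against 19.3 and 18.9 TPM, a 2.06-fold increase with a log2 fold change of 1.01 (SE 0.04, adjusted p = 1.8e-05 by limma). The groups did not overlap for either gene.

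*Per1* was at 3.69 and 2.79 TPM in Met + LPS (157 and 139 reads) against 1.28 and 1.12 TPM in LPS. The increase was 2.70-fold, a log2 fold change of 0.94 (SE 0.12, adjusted p = 9.6e-04 by limma), and both Met + LPS libraries stayed far below the untreated ones. *Cry1* was at 19.4 and 18.5 TPM against 12.7 and 13.1 TPM, a log2 fold change of 0.52 (SE 0.05, adjusted p = 3.8e-04 by limma).

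The other 6 genes did not pass the threshold. *Clock* was at 22.7 and 21.0 TPM in Met + LPS, above both LPS libraries, with a log2 fold change of 0.24 (SE 0.06, adjusted p = 0.0159 by limma), and voom with TMM scaling called it (0.28, adjusted p = 9.0e-05). *Dbp* was at 2.39 and 1.55 TPM, with a log2 fold change of 0.50 (SE 0.15, adjusted p = 0.0313 by limma). That of *Dbp* depended on 1 library, being 0.71 (adjusted p = 0.00914 by limma) without Met + LPS replicate 2 and 0.30 without Met + LPS replicate 1. *Per2* was at 0.610 and 0.502 TPM on 27 and 26 reads, which is 2.31-fold the LPS level, with a log2 fold change of 0.33 (SE 0.15, adjusted p = 0.125 by limma). With voom and TMM scaling the estimate for *Per2* was 1.18 and just missed the threshold (adjusted p = 0.0102 by limma voom).

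*Cry2* was at 3.47 and 3.36 TPM, with an estimate of 0.10 on the log2 scale (adjusted p = 0.418 by limma). *Nr1d1* was at 0.645 and 0.441 TPM on 15 and 12 reads, with an estimate of 0.12 on the log2 scale (adjusted p = 0.513 by limma). *Arntl* had the only negative estimate. Its libraries were at 1.65 and 1.85 TPM, below both LPS libraries, and the log2 fold change was -0.28 (SE 0.09, adjusted p = 0.045 by limma).

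**Figure D4:**
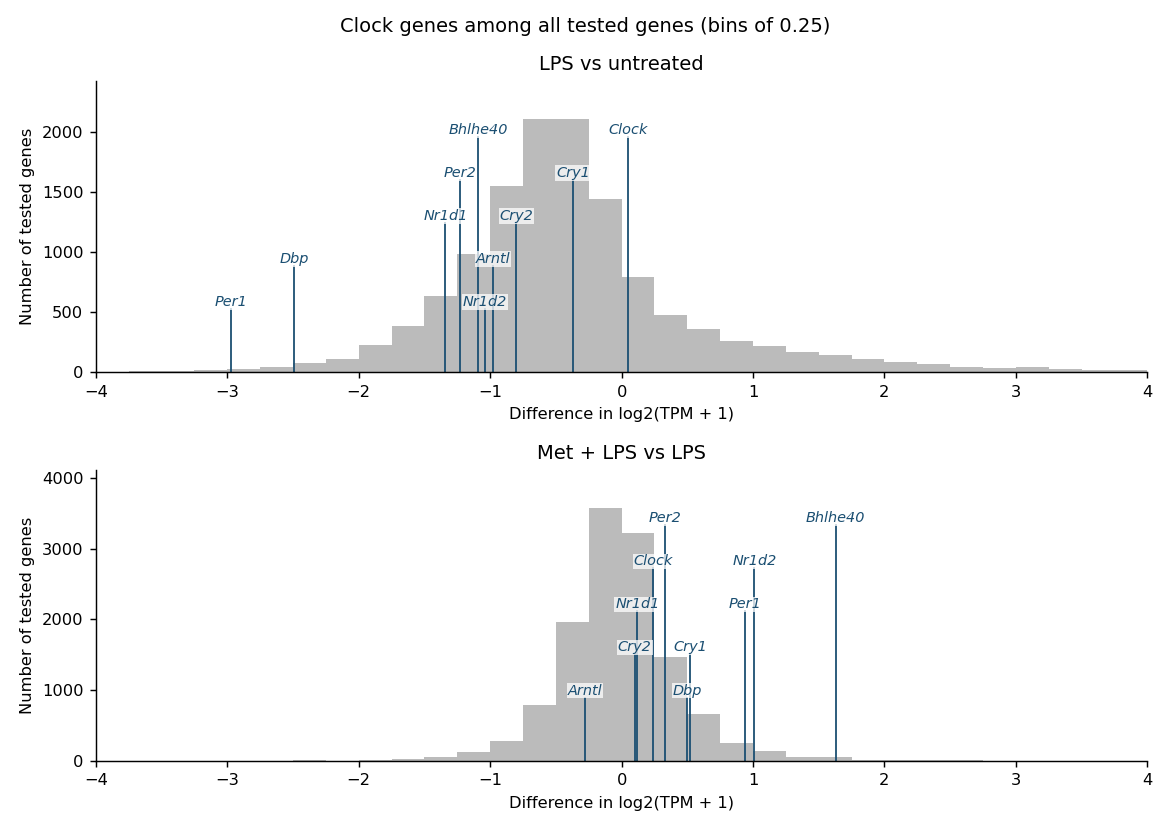
Number of tested genes (y axis, grey bars) by difference in log2(TPM + 1) (x axis, bins of 0.25, drawn from -4 to 4) for LPS vs untreated (top) and Met + LPS vs LPS (bottom), with a blue line at the value of each clock gene. The height of a line carries no value. Per1 and Dbp lie in the lower tail at the top, at -2.97 and -2.49, and Bhlhe40 in the upper tail at the bottom, at 1.63.

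Set against untreated BMDMs, the pretreated and stimulated cells carried 6 clock transcripts below and 2 above the untreated level (of all tested genes 75.1% were called, 58.8% lower and 16.3% higher). The 6 include *Per2* and *Nr1d1*, which passed the filter only through the untreated libraries, so here too the count is a description only. Without overlap, 7 genes lay lower and 3 higher, against 69.1% and 21.7% of all tested genes. After rescaling, 5 were called lower and 4 higher, against 29.7% and 33.4%. This comparison shares libraries with both of the others. *Per1* remained 5.01-fold lower (log2 fold change -2.03, adjusted p = 7.1e-06 by limma) and *Dbp* 5.43-fold lower (-1.99, adjusted p = 2.3e-05 by limma). *Nr1d1* was 4.78-fold lower (-1.22) and *Per2* 3.45-fold lower (-0.90), given without a p-value because the filter fixed their direction. *Arntl* was 3.20-fold lower (-1.26, adjusted p = 2.1e-05 by limma) and *Cry2* 1.80-fold lower (-0.70, adjusted p = 5.1e-04 by limma). *Cry2* lost its call after rescaling (-0.25, adjusted p = 0.056 by limma).

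*Bhlhe40* exceeded its untreated level 1.47-fold, with a log2 fold change of 0.54 (SE 0.07, adjusted p = 2.7e-04 by limma). *Clock* exceeded it 1.23-fold, with a log2 fold change of 0.28 (SE 0.06, adjusted p = 0.0035 by limma), a call that was lost without untreated replicate 1 (0.30), without untreated replicate 2 (0.26) or without Met + LPS replicate 1 (0.23). *Nr1d2*, at 40.2 and 38.6 TPM against 40.3 and 40.6 TPM, had a log2 fold change of -0.04 (SE 0.04, adjusted p = 0.447 by limma). Relative to the median tested gene *Nr1d2* was 0.44 higher, and after rescaling it was called higher (0.49, adjusted p = 6.3e-05 by limma). *Cry1* was 1.12-fold higher (0.15, SE 0.05, adjusted p = 0.033 by limma) and was called after rescaling (0.66, adjusted p = 4.5e-05 by limma).

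The balance between related genes therefore differed among the 3 groups. The ratio of *Nr1d2* to *Nr1d1* in TPM was 62.3 and 87.7 in the Met + LPS libraries, above the LPS and the untreated libraries, although the *Nr1d1* values rest on few reads. The ratio of *Clock* to *Arntl* was 13.8 and 11.4, and that of *Cry1* to *Cry2* went from 2.90 and 2.62 in untreated through 4.38 and 3.92 in LPS to 5.59 and 5.50 in Met + LPS libraries. The ratio of *Per1* to *Per2* was 9.65 and 7.56 in untreated, 5.2 and 4.78 in LPS and 6.05 and 5.56 in Met + LPS libraries. Its *Per2* values also rest on few reads, 11 and 10 in LPS and 27 and 26 in Met + LPS libraries. These ratios are within a library, do not depend on the scaling of the libraries, and were not tested.

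A list of 22 further clock genes was used to describe the rest of the pathway. Of these, 17 passed the filter and were tested. *Rorb*, which encodes a ROR receptor, was listed at 0 in all 6 libraries, and *Hlf*, *Arntl2* and *Fbxl21* were below the filter. After LPS all 17 were called, 14 lower and 3 higher (76.3% of all tested genes were called in either direction), with a median log2 fold change of -1.03. *Per3*, *Usp2* and *Ciart* reached the filter through the untreated libraries (*Ciart* also in 1 Met + LPS library) and in no LPS library, so they had to differ in order to be tested, and these counts are a description only. After rescaling, 9 were called lower and 4 higher, against 27.6% and 30.6% of all tested genes. In Met + LPS against LPS, 6 were called higher and 5 lower (32.6% of all tested genes in either direction), with a median of 0.23. When only the compared groups were fitted, 6 were called higher and 2 lower. Shares of all tested genes in that fit, or with a library left out, are not given here. These counts and those that follow are therefore a description only. The total of 11 fell to 8 when any 1 library other than Met + LPS replicate 1 was left out, untreated libraries included, to 7 without that library, and to 8 when only the compared groups were fitted.

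The genes of the list closest in function to the 10 clock genes are given by library. *Bhlhe41*, which encodes DEC2, the paralog of DEC1, was at 70.1 and 65.5 TPM in untreated, 8.37 and 9.56 TPM in LPS and 41.7 and 36.0 TPM in Met + LPS libraries. Its log2 fold changes were -2.79 after LPS (adjusted p = 5.4e-07 by limma) and 2.00 with metformin pretreatment (adjusted p = 2.0e-05 by limma). In Met + LPS it lay below its untreated level (-0.79, adjusted p = 1.7e-04 by limma), a call that was lost after rescaling (-0.26, adjusted p = 0.038 by limma), and the ratio of *Bhlhe40* to *Bhlhe41* was 0.720 and 0.758 in untreated, 2.84 and 2.34 in LPS and 1.87 and 1.91 in Met + LPS libraries. *Bhlhe41* shares 19.0% of its exon length with an unclassified transcript on the opposite strand.

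*Rora*, which encodes a ROR receptor and competitor of the REV-ERBs, was at 8.67 and 8.44 TPM in untreated, 3.74 and 3.64 TPM in LPS and 11.5 and 10.5 TPM in Met + LPS libraries. It fell by 1.03 on the log2 scale after LPS (adjusted p = 1.7e-05 by limma) and rose by 1.35 with pretreatment (adjusted p = 3.5e-05 by limma). *Nfil3*, which encodes E4BP4, the repressor that opposes DBP at D-boxes, went the other way. It was at 13.4 and 13.7 TPM in untreated, 165 and 161 TPM in LPS and 72.1 and 61.2 TPM in Met + LPS libraries, with log2 fold changes of 3.49 (adjusted p = 9.0e-08 by limma) and -1.28 (adjusted p = 4.8e-05 by limma). *Tef*, a D-box activator related to *Dbp*, fell by 2.09 after LPS (adjusted p = 5.9e-07 by limma) and rose by 0.50 with pretreatment (adjusted p = 0.00138 by limma).

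Paralogs and a further repressor were also at lower levels after LPS, of which *Per3* and *Ciart* are given without a p-value because the filter fixed their direction. *Per3*, the third period gene, went from 3.7 and 4.14 TPM to 0.916 and 0.87 TPM (log2 fold change -1.38), *Ciart*, which encodes the repressor CHRONO, from 2.16 to 0.414 TPM on average (-1.16), and *Npas2*, a paralog of *Clock*, from 5.26 to 1.47 TPM on average (-1.34, adjusted p = 8.5e-05 by limma). None of these 3 passed the threshold with metformin pretreatment (log2 fold changes of -0.17, 0.62 and 0.23, adjusted p = 0.309, 0.0121 and 0.198 by limma), although *Ciart* was called after rescaling (0.66, adjusted p = 0.0097 by limma).

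The genes that act on clock proteins moved in both directions. Of the kinases that phosphorylate PER and other clock proteins, *Csnk1e* fell from 26.0 to 8.38 TPM after LPS (log2 fold change -1.53, adjusted p = 3.4e-06 by limma) and rose to 13.4 TPM with pretreatment (0.62, adjusted p = 8.0e-04 by limma). *Gsk3b* fell from 47.3 to 32.3 TPM (-0.54, adjusted p = 1.7e-05 by limma), which was near the median shift and was not called after rescaling (-0.02), and rose to 63.9 TPM with pretreatment (0.96, adjusted p = 1.4e-05 by limma). *Csnk1d*, another of these kinases, was at 110 and 114 TPM in untreated, 92.1 and 91.2 TPM in LPS and 81.1 and 79.4 TPM in Met + LPS libraries. After LPS it was called lower (-0.29, adjusted p = 2.4e-04 by limma) but higher after rescaling (0.23, adjusted p = 8.6e-04 by limma), and with pretreatment it was called lower (-0.19, adjusted p = 0.00474 by limma). *Fbxw11*, which encodes a substrate receptor for the degradation of PER proteins, rose from 90.5 to 191 TPM after LPS (1.07, adjusted p = 4.8e-07 by limma) and was at 156 TPM with pretreatment (-0.29, adjusted p = 6.9e-04 by limma). The corepressor gene *Ncor1*, through which REV-ERBs silence their targets, fell by 0.64 after LPS (adjusted p = 2.3e-05 by limma), was not called after rescaling (-0.12), and rose by 0.57 with pretreatment (adjusted p = 1.8e-04 by limma).

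**Figure D5:**
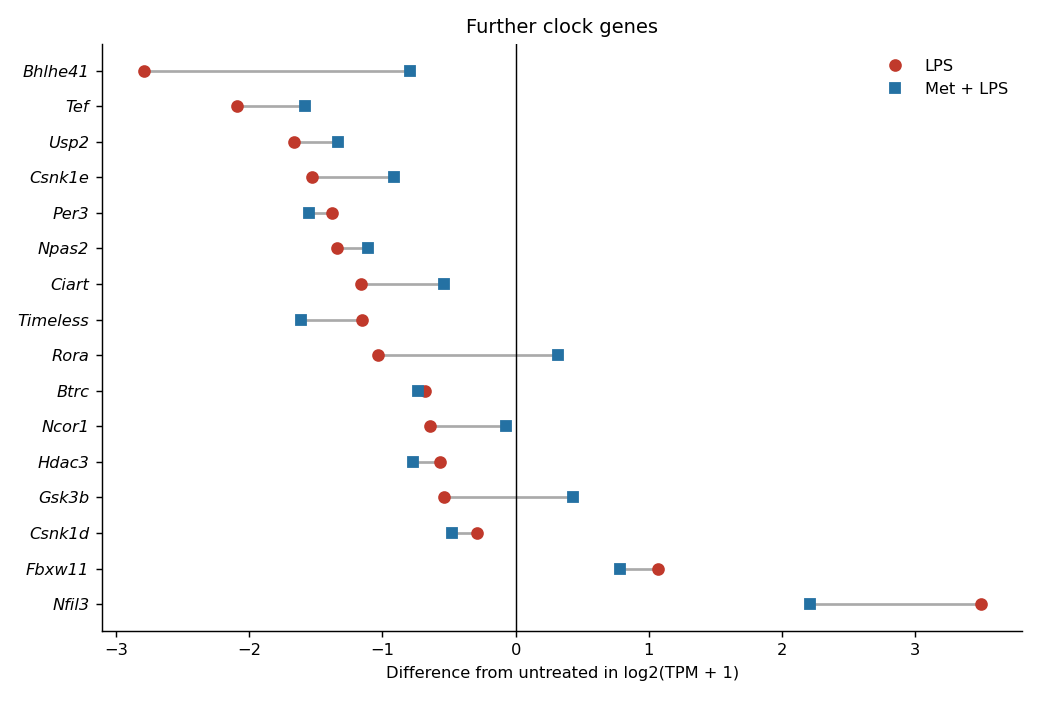
Difference from untreated BMDMs in log2(TPM + 1) (x axis) for 16 genes of the further clock list (y axis), with LPS as red circles and Met + LPS as blue squares joined by a line. Nfil3 is highest at 3.49 and 2.21, and Rora and Gsk3b are the 2 genes whose squares lie to the right of 0 while their circles lie to the left.

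For each of the 10 genes, the tested gene with the most similar profile was taken as that with the smallest root mean square difference in centred log2(TPM + 1) over the 6 libraries. For *Bhlhe40* it was *Klf4* (0.083), with 4 genes within 0.1. For *Nr1d2* it was *Stxbp5* (0.029), with 26 genes within 0.1. *Per1* and *Dbp* had no gene within 0.1, their nearest being *Ypel2* (0.101) and *Kmt5c* (0.106). The profiles of the other 6 genes were common on this scale, with 94 to 459 tested genes within 0.1, the nearest including *Tsen34* for *Arntl*, *Kmt2a* for *Clock*, *Mroh6* for *Per2*, *Dvl3* for *Cry2* and *Polr2a* for *Nr1d1*. The pseudocount of 1 shrinks the differences of low genes. *Per2* and *Nr1d1*, 7.97-fold and 6.26-fold lower after LPS in TPM, enter as log2 fold changes of -1.23 and -1.34. How far this shaped their neighbours was not tested.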

How the data were processed

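The deposited values are TPM for 54532 genes, which the authors obtained from single-end reads with STAR 2.6.1d (GRCm38) and featureCounts of Subread 1.6.3, with replicates kept separate. How TPM was computed and whether counting used strand are not given in the sources used here. TPM have a fixed total per library and hide differences in RNA per cell. The 10 genes and the further list were chosen with earlier results of these data known.

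The 12755 genes that reached 1 TPM in 2 or more of 6 libraries were fitted in limma 3.58.1 (R 4.3.3) as log2(TPM + 1), using a variance trend, 1 model of all libraries (3 residual degrees of freedom), no covariate, and Benjamini-Hochberg correction over all of them. Calls used an adjusted p-value under 0.01, and also the study's fold cut-offs of 2 and 0.7, applied here to log2(TPM + 1). For low genes the pseudocount of 1 makes fold changes too small. The fit was tested on simulated data. Reads were recovered by multiplying TPM by GENCODE exon lengths (54495 genes matched), dividing by a step estimated per library, and rounding. They were fitted with limma voom as an alternative, and depth is in the report.

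The text names the 10 genes, called genes of the further list and, for each of the 10, the gene with the nearest profile. Some genes that this rule covers are not reported here. Further alternatives replaced the pseudocount (0.1), the filter (none, or 5 TPM), the scaling (median ratio), the libraries fitted, the variance model and the cut-offs, added the replicate number as a block, or left out each library. Voom without TMM scaling was added after seeing the data. Tables and plots used Python 3.11.15, pandas 2.3.3 and matplotlib 3.10.9.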

Additional observations from a re-analysis of the deposited data

How the results depend on the processing

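With the replicate number as a block, the number of the 10 clock genes called was 9 for LPS vs untreated, 4 for Met + LPS vs LPS and 8 for Met + LPS vs untreated, as without the block, and 9 in place of 11 of the further list were called for Met + LPS vs LPS. Libraries with the same number did not deviate together (correlations of -0.004 to 0.028 over 12755 genes), so the numbers were not taken as pairs. Past the fold cut-off of 2 for LPS vs untreated, 2 clock genes became 4 with a pseudocount of 0.1, 4 with voom and TMM scaling and 4 with voom without TMM scaling, and a cut-off of 1 gave 6. With voom and TMM scaling *Per2* (-2.45) and *Nr1d1* (-2.11) joined *Per1* and *Dbp*. *Per2* and *Nr1d1* passed the filter only through the untreated libraries, which fixed their direction. An adjusted p-value cut-off of 0.05 raised the clock genes called for Met + LPS vs LPS from 4 to 7 (6 higher and 1 lower). Leaving out each library in turn gave 7 to 8 genes of the further list for that comparison, 4 to 5 of the 10 clock genes, and 3 to 4 of the 10 past its fold cut-off. The cause was not tested. Shares of all tested genes under these alternatives are not given here, so these counts are a description only.

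The estimate reversed in sign for *Cry1* in LPS vs untreated (0.12 with median-ratio rescaling and 0.07 with voom and TMM scaling) and for *Nr1d2* in Met + LPS vs untreated (0.49 and 0.46), which are the settings that remove the median shift of -0.48. Of 294 values of single clock genes under the other alternatives, these 4 reversed and 277 kept their direction and side of the threshold. Among the rest, 11 became called and 2 lost the call. The 4 reversed values also changed side of the threshold, *Cry1* losing its call and *Nr1d2* becoming called. Of 180 values with a library left out, 176 kept both. Genes at 9 to 27 reads in the stimulated libraries (*Per2* and *Nr1d1*) are limited by depth.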
